A study of Mus musculus with 6 samples.

Results

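Transcripts of 9 genes that make, sense and clear the lysophospholipids which steer lymphocytes out of tissue, together with the activation marker gene Cd69, were followed in mouse lung group 2 innate lymphoid cells (ILC2s). The genes were S1pr1, S1pr4, Sphk1, Sphk2, Sgpl1, Sgpp1, Cd69, Enpp2 and Lpar6, taken by symbol from a table of 16588 genes. All 9 had a row and all 9 were tested. RNA was sequenced from 6 libraries, 3 labelled Cnr2 KO and 3 labelled C57BL/6, the wild type (WT). Cnr2 encodes the cannabinoid receptor CB2, and how its deletion was made is not given in the sources used here. Mice of both groups had been given 0.5 µg recombinant mouse IL-33 intranasally on 3 days running, lung cells were taken on day 4, and sorted ILC2s were kept in culture for 18 h. The sources used here do not give the age or any pooling of the mice, and the series title names adipose tissue where every label names lung.

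Lymphocytes leave tissue along a gradient of sphingosine 1-phosphate (S1P), which is high in blood and lymph and low inside organs. The receptor S1PR1 reads that gradient, and CD69 binds S1PR1 and draws it inside the cell, so that freshly activated lymphocytes stay where they are. S1P is made by sphingosine kinases, dephosphorylated by S1P phosphatases and cut irreversibly by S1P lyase. Lysophosphatidic acid (LPA), a related lipid that promotes motility, is made outside the cell by the secreted enzyme autotaxin and is sensed by its own G protein-coupled receptors.

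In libraries labelled Cnr2 KO, S1pr1 was 14.0-fold lower and the autotaxin gene Enpp2 fell to a few counts per library, whereas Cd69, S1pr4 and Lpar6 rose. The enzymes inside the cell that were well counted moved far less: the kinase Sphk2 was 1.21-fold lower, the lyase Sgpl1 1.30-fold higher, and the phosphatase Sgpp1 did not pass the test. Of the 9 genes, 4 were higher, 4 were lower and 1 did not pass (edgeR's quasi-likelihood test over 12150 genes, adjusted p under 0.05 after Benjamini and Hochberg). Over all tested genes 66.3% were called, 33.1% as higher and 33.2% as lower, so a call by itself does not set these genes apart. The median log2 fold change of the 9 genes was -0.03, beside 0.01 over all tested genes.

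Total counts ran from 17867541 to 19399819 in libraries labelled Cnr2 KO and from 19056174 to 129617689 in WT, where replicate 2 had 6.88 times the mean total of the other 5. The targeted gene did not follow its label: Cnr2 had 7.55, 7.42 and 7.49 CPM (counts relative to library size, scaled by the trimmed mean of M-values, TMM) in libraries labelled Cnr2 KO and 3.99, 3.89 and 3.17 CPM in WT (log2 fold change 1.01, SE 0.16, edgeR adjusted p = 2.11e-05). The table gives 1 value per gene and none per exon, so the groups are called by their labels throughout, and every direction below rests on those labels. All 12 listed ILC2 markers were counted and summed to between 13870 and 15040 CPM in libraries labelled Cnr2 KO and between 13810 and 14450 CPM in WT. That sum was mostly Il5 and Il2ra, and the markers were not alike between the groups. Under the Cnr2 KO label 9 of the 12 were higher and 2 were lower, beside 33.1% and 33.2% over all tested genes. Gata3, the lineage-defining transcription factor, was 3.72-fold higher and Thy1 3.94-fold higher, whereas Il2ra was 2.03-fold lower and Il13 1.88-fold lower (the largest edgeR adjusted p of these 4 genes was 3e-06). Thy1 was scarce, at a mean of 3.69 CPM under the Cnr2 KO label and 0.920 CPM in WT, against 1073 and 288 CPM for Gata3. The part of these marker differences in the results below was not tested.

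The promoter windows of S1pr4 and Lpar6 are shown because these are the receptor genes among the 9 that rose. Each window runs from 250 bases before to 50 bases after the start site, is from RefSeq (GRCm38.p6) and is written 5′ to 3′ on the strand of the gene. Capitals mark the letters CACCC, a core bound by KLF-type factors, or their reverse complement. The S1pr4 window lies at chr10:81500088-81500387 on the minus strand and the Lpar6 window at chr14:73237641-73237940 on the plus strand.
S1pr4: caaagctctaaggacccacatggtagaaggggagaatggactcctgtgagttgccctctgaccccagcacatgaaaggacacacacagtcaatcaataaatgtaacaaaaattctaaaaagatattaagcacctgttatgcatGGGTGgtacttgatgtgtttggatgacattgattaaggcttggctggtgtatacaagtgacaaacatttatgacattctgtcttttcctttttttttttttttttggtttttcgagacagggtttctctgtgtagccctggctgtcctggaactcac
Lpar6: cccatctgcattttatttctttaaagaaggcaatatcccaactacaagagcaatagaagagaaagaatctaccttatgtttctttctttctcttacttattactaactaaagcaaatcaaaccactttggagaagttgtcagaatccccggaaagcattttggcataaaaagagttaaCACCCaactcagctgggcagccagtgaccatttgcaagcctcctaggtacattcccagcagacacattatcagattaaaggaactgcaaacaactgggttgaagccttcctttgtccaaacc
The S1pr4 window held the letters 1 time, as the reverse complement, and the Lpar6 window 1 time, as CACCC. Searched on both strands, CACCC occurred in 57.5% of 32851 RefSeq windows of 300 bases, so its presence is common. The FOXO core GTAAACA, found in 3.65% of all windows, and the AP-1 letters TGANTCA, found in 7.81%, occurred in neither window. Of the 9 genes, 6 had a RefSeq window, and S1pr1, Cd69 and Enpp2 are named only. CACCC also occurred in windows of Sphk1 and Sphk2 and in none of Sgpl1 or Sgpp1, and TGANTCA occurred in windows of Sphk1 alone among the 6 genes. A match is a run of letters and not a bound site.

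S1pr1 (ENSMUSG00000045092.8, chromosome 3, 115710433 to 115715072, GRCm38, minus strand) had 8.42, 9.13 and 11.1 CPM in libraries labelled Cnr2 KO, against 133, 139 and 126 CPM in WT. The highest value under the Cnr2 KO label was far below the lowest WT value, and no library stood between the groups. The log2 fold change was -3.80 (SE 0.08, edgeR adjusted p = 3.07e-17), rank 73 from the most lower of all tested genes. Leaving out any single library kept it between -3.92 and -3.72. Pooled counts were 535 in libraries labelled Cnr2 KO and 22876 in WT, so the lower level is still well above the counting floor. In bulk RNA, fewer cells that express a gene and less RNA per cell cannot be told apart, here and for every gene below.

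S1pr4 (ENSMUSG00000044199.6, chromosome 10, 81497747 to 81500132, minus strand), an S1P receptor found mainly on blood and lymphoid cells, went the opposite way. It had 36.2, 36.0 and 33.9 CPM in libraries labelled Cnr2 KO and 15.3, 17.3 and 16.9 CPM in WT. All values under the Cnr2 KO label were above all WT values. Such a lack of overlap was found for 8 of the 9 genes and for 68.9% of all tested genes. The log2 fold change of S1pr4 was 1.09 (SE 0.08, edgeR adjusted p = 8.72e-10), a 2.13-fold difference.

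The log2 ratio of S1pr1 to S1pr4 counts, which does not depend on library scaling, was -2.10, -1.98 and -1.61 in libraries labelled Cnr2 KO and 3.11, 3.01 and 2.90 in WT. S1pr4 had more counts than S1pr1 in each library labelled Cnr2 KO, and S1pr1 more than S1pr4 in each WT library. The mean ratios differed by -4.90, or 29.9-fold (two-sided exact permutation p = 0.1, the smallest that 3 against 3 allows, and 0.133 after adjustment over 4 ratios).

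Cd69 (ENSMUSG00000030156.5, chromosome 6, 129267325 to 129275436, minus strand) was at 104, 105 and 100.1 CPM in libraries labelled Cnr2 KO, against 40.7, 45.7 and 40.8 CPM in WT. Values within each group lay close together, and every library labelled Cnr2 KO was above every WT library. The log2 fold change was 1.27 (SE 0.06, edgeR adjusted p = 1.83e-12), a 2.41-fold difference. The transcripts of Cd69 and S1pr1, whose products bind each other, thus differed in opposite directions.

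The log2 ratio of S1pr1 to Cd69 counts was -3.62, -3.52 and -3.17 in libraries labelled Cnr2 KO and 1.71, 1.60 and 1.63 in WT. The ratio was lower in 3 of 3 libraries labelled Cnr2 KO, with a difference of -5.08 on the log2 scale, or 33.9-fold (two-sided exact permutation p = 0.1, adjusted p = 0.133 over 4 ratios). These are RNA levels, and the amount of either protein on the cell surface was not measured.

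**Figure D1:**
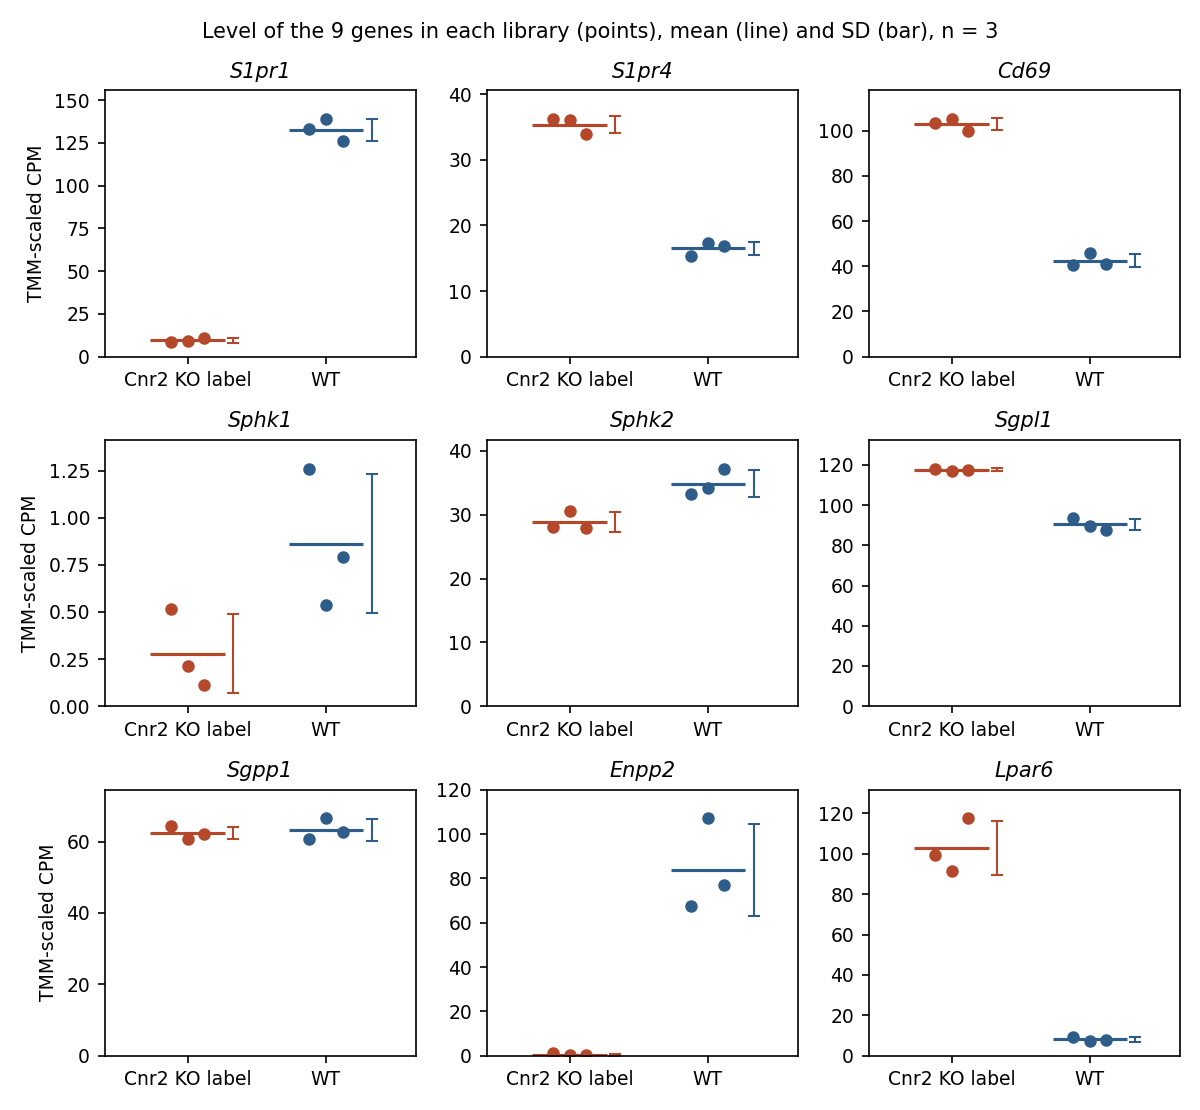
TMM-scaled CPM (vertical axes) of the 9 genes in the 3 libraries labelled Cnr2 KO (left in each panel) and the 3 WT libraries (right), with points for libraries and the mean and SD of each group. The groups do not overlap for 8 of the 9 genes, beside 68.9% of all tested genes. For Sphk1 the gap is narrow, from 0.514 CPM under the Cnr2 KO label to 0.534 CPM in WT. Sgpp1 overlaps, at 62.4 ± 1.76 CPM under the Cnr2 KO label and 63.3 ± 3.03 CPM in WT (SD, n = 3 each).

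Transcripts of both sphingosine kinases were lower in libraries labelled Cnr2 KO, by little for the abundant Sphk2 and with weak support for the rare Sphk1. Sphk2 (ENSMUSG00000057342.15, chromosome 7, 45709467 to 45718002, minus strand) was at 28.04, 30.66 and 27.94 CPM in libraries labelled Cnr2 KO and 33.2, 34.23 and 37.25 CPM in WT. The gap between the groups was small but free of overlap, and the log2 fold change was -0.27 (SE 0.08, edgeR adjusted p = 0.00524). Exons of Sphk2 overlap those of Rpl18 and Dbp on the other strand, and the strand setting of the counting is not given in the sources used here. Rpl18, a ribosomal protein gene, fell as well (log2 fold change -0.73, SE 0.06, edgeR adjusted p = 1.26e-09). Dbp was at 3.05 ± 0.237 CPM under the Cnr2 KO label and 2.37 ± 0.0538 CPM in WT (edgeR adjusted p = 0.173). Their part in the Sphk2 value was not tested.

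Sphk1 (ENSMUSG00000061878.15, chromosome 11, 116530925 to 116536674, plus strand), the kinase that growth factors and cytokines induce in many cells, was barely counted. It had 10, 4 and 2 counts in libraries labelled Cnr2 KO and 24, 69 and 15 counts in WT, or 0.514, 0.214 and 0.111 CPM against 1.26, 0.534 and 0.793 CPM. The lowest WT value lay just above the highest under the Cnr2 KO label. The log2 fold change was -1.47 (SE 0.56, edgeR adjusted p = 0.0278). The call was lost without Cnr2 KO replicate 2 or 3 (edgeR adjusted p = 0.0982 and 0.127) and without WT replicate 1 or 3 (edgeR adjusted p = 0.11 and 0.0514). Without Cnr2 KO replicate 1 it was 4.84-fold lower, against 2.76-fold with all libraries. A noncoding gene on the other strand overlaps its exons, which leaves its counts uncertain. Per kb of exon, Sphk2 made up 99.2 ± 0.646% of the kinase transcripts in libraries labelled Cnr2 KO and 97.9 ± 0.966% in WT (SD, n = 3 each).

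Sgpl1, the S1P lyase, was somewhat higher in libraries labelled Cnr2 KO, and the phosphatase gene Sgpp1 did not pass the test. Sgpl1 (ENSMUSG00000020097.14, chromosome 10, 61098642 to 61147703, minus strand) was at 118, 117 and 118 CPM in libraries labelled Cnr2 KO and 93.5, 89.8 and 87.8 CPM in WT. Its values under the Cnr2 KO label were nearly identical and all lay above WT, and the log2 fold change was 0.38 (SE 0.05, edgeR adjusted p = 2.57e-06). Sgpp1 (ENSMUSG00000021054.6, chromosome 12, 75714249 to 75735729, minus strand), an S1P phosphatase of the endoplasmic reticulum, had 64.3, 60.8 and 62.0 CPM under the Cnr2 KO label and 60.7, 66.6 and 62.6 CPM in WT. These groups overlapped, and the log2 fold change was -0.03 (SE 0.06, edgeR adjusted p = 0.721), with an approximate 95% interval of -0.15 to 0.10.

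The log2 ratio of both kinases to Sgpl1 plus Sgpp1 counts was -2.63 ± 0.087 in libraries labelled Cnr2 KO and -2.10 ± 0.106 in WT (SD, n = 3 each, two-sided exact permutation p = 0.1, adjusted p = 0.133 over 4 ratios). It compares RNA counts not scaled by gene length, and neither S1P nor enzyme activity was measured. The ratio of Sphk1 to Sphk2 overlapped between the groups, at -6.79 ± 0.994 in libraries labelled Cnr2 KO and -5.40 ± 0.658 in WT (two-sided exact permutation p = 0.2, also after adjustment). The difference of -1.39 between these means depended on the 0.5 counts added to each value, and was -0.63 with 5 counts added.

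Enpp2 (ENSMUSG00000022425.16, chromosome 15, 54838901 to 54952892, minus strand), which encodes autotaxin, had 20, 7 and 3 counts in libraries labelled Cnr2 KO and 1285, 13864 and 1458 counts in WT. As levels these were 1.03, 0.374 and 0.166 CPM against 67.5, 107 and 77.0 CPM. The groups were far apart, while the values under the Cnr2 KO label differed among themselves by up to 6.18 times and those of WT by up to 1.59 times. The log2 fold change was -7.31 (SE 0.26, edgeR adjusted p = 1.43e-14), 158.6-fold lower and rank 15 from the most lower of all tested genes. Without Cnr2 KO replicate 1 it was 309.4-fold lower. A noncoding gene on the other strand overlaps an exon of Enpp2, so its counts are uncertain to that extent. Enpp2 and Sphk1 passed the filter on low counts through their WT libraries alone.

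Lpar6 (ENSMUSG00000033446.7, chromosome 14, 73237895 to 73243294, plus strand), a receptor for LPA, moved opposite to the gene of the enzyme that makes LPA. It had 99.3, 91.5 and 118 CPM in libraries labelled Cnr2 KO, against 9.35, 7.10 and 7.98 CPM in WT. Every library labelled Cnr2 KO was above every WT library. The log2 fold change was 3.72 (SE 0.11, edgeR adjusted p = 8.39e-16), 13.2-fold higher and rank 47 from the most higher of all tested genes.

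Lpar6 shares exon sequence with Rb1, the retinoblastoma gene, which runs on the other strand. Rb1 was at 253 ± 7.08 CPM in libraries labelled Cnr2 KO and 190 ± 8.07 CPM in WT (log2 fold change 0.41, SE 0.05, edgeR adjusted p = 3.47e-07), a smaller fold difference than that of Lpar6. The part of Rb1 reads in the Lpar6 value was not tested.

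Within their receptor families, S1pr1 and Lpar6 changed places with relatives. Per kb of exon, S1pr1 made up 13.3, 14.0 and 17.1% of the transcripts of S1pr1, S1pr2, S1pr3 and S1pr4 in libraries labelled Cnr2 KO, against 82.3, 81.4 and 79.5% in WT. S1pr4 made up 70.0 ± 2.95% in libraries labelled Cnr2 KO and 12.9 ± 0.713% in WT (SD, n = 3 each). S1pr4 therefore took the leading place that S1pr1 held in WT, within a family whose summed level was 21.2 ± 0.290 CPM per kb under the Cnr2 KO label and 53.8 ± 2.07 CPM per kb in WT.

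Among Lpar2, Lpar4, Lpar5 and Lpar6, Lpar6 made up 67.3, 67.3 and 76.2% in libraries labelled Cnr2 KO and 19.3, 15.6 and 15.9% in WT. Lpar5, another LPA receptor, held 28.9 ± 5.03% under the Cnr2 KO label and 80.6 ± 1.98% in WT (SD, n = 3 each). The level of Lpar5 itself overlapped between the groups, at 11.8 ± 1.61 CPM under the Cnr2 KO label and 10.9 ± 0.571 CPM in WT (edgeR adjusted p = 0.375). The shares of receptors and kinases were chosen after the values had been seen and carry no test. S1pr5, Lpar1 and Lpar3 had no row.

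**Figure D2:**
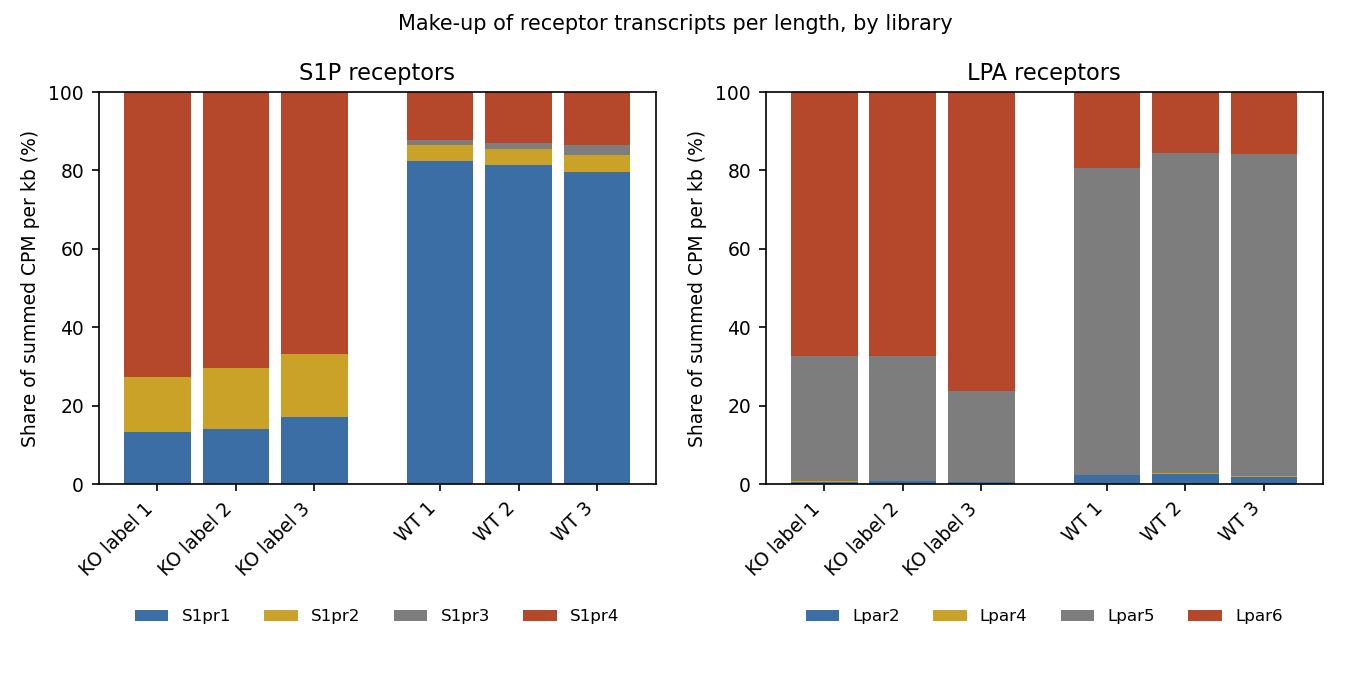
Share (%) of each receptor in the summed CPM per kb of S1pr1 to S1pr4 and of Lpar2, Lpar4, Lpar5 and Lpar6, as stacked bars with 1 bar per library, those labelled Cnr2 KO to the left of WT. S1pr4 and Lpar6 hold the largest shares in libraries labelled Cnr2 KO, and S1pr1 and Lpar5 in WT.

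The order of the 9 genes by level per length also differed. Lengths here and for the shares above are the union of all annotated exons (6509 bases for Cd69), which can exceed the transcript present. They were the same in both groups, but places and shares within a group depend on them. In libraries labelled Cnr2 KO it ran from Sgpl1 and Lpar6 (19.0 ± 2.49 CPM per kb) through Cd69 (15.8 ± 0.399 CPM per kb), S1pr4, Sgpp1 and Sphk2 to S1pr1, Enpp2 and Sphk1. In WT it ran from S1pr1 (43.6 ± 2.08 CPM per kb) through Sgpl1, Enpp2, Sgpp1, Sphk2, S1pr4 and Cd69 (6.52 ± 0.443 CPM per kb) to Lpar6 (1.51 ± 0.210 CPM per kb) and Sphk1. Neighbours whose values overlapped were Sgpl1 with Lpar6 and Enpp2 with Sphk1 in libraries labelled Cnr2 KO. In WT they were Sgpl1 with Enpp2, Enpp2 with Sgpp1, and S1pr4 with Cd69. S1pr1 was in place 7 under the Cnr2 KO label and in place 1 in WT, and Lpar6 in place 2 under the Cnr2 KO label and in place 8 in WT.

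**Figure D3:**
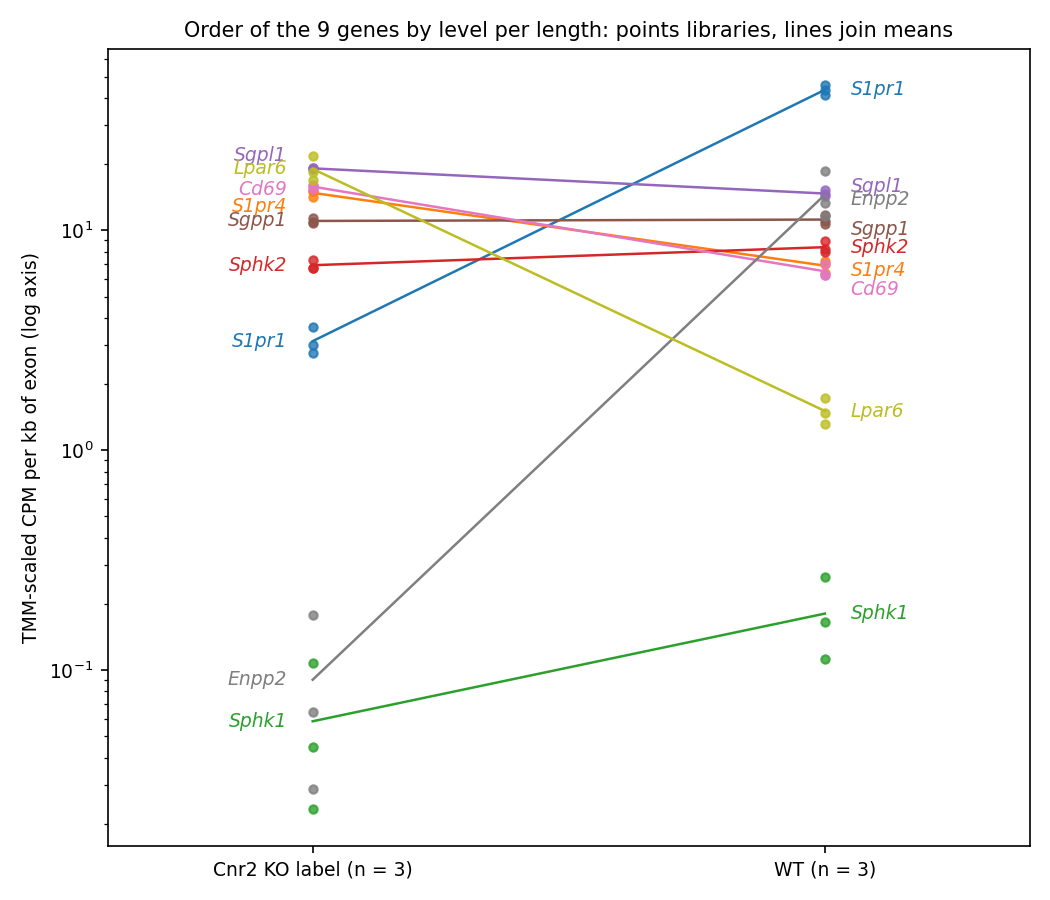
Level per length of the 9 genes (TMM-scaled CPM per kb of exon, log axis) in libraries labelled Cnr2 KO (left) and WT (right), with points for libraries and lines joining group means. S1pr1 is among the lowest genes in libraries labelled Cnr2 KO and the highest in WT at 43.6 CPM per kb, and Lpar6 is at 19.0 CPM per kb under the Cnr2 KO label and 1.51 CPM per kb in WT.

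Of 13 other lysophospholipid receptors listed, 10 had a row and 9 were tested. Of these, 3 were higher, 3 were lower and 3 did not pass, close to the shares over all tested genes (33.1% higher and 33.2% lower), with a median log2 fold change of 0.13. Gpr55, a receptor for lysophosphatidylinositol, was 7.53-fold lower, at 2.43 ± 1.06 CPM under the Cnr2 KO label and 18.1 ± 0.597 CPM in WT, and Gpr132 was 1.91-fold lower. P2ry10, a receptor for lysophosphatidylserine, was 1.72-fold higher (the largest edgeR adjusted p of these 3 genes was 1.31e-07). S1pr3 had 0 counts in all libraries labelled Cnr2 KO and 62, 491 and 115 counts in WT, at least 74.9-fold lower when the floor is set to 3 pooled counts. S1pr2, which restrains migration, was at 25.8 ± 2.07 CPM under the Cnr2 KO label and 18.1 ± 0.654 CPM in WT (log2 fold change 0.50, edgeR adjusted p = 6.68e-05). With S1pr3 at its bound the median was again 0.13.

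Of the 12 tested genes that supply, transport or clear S1P, 5 were higher and 6 were lower (33.1% and 33.2% over all tested genes). Their median log2 fold change was -0.10. Cers6, a ceramide synthase, was 4.59-fold lower, at 11.7 ± 2.02 CPM under the Cnr2 KO label and 53.5 ± 0.990 CPM in WT. Cers4, another ceramide synthase, was 2.41-fold higher and the ceramide kinase Cerk 2.04-fold higher. Aldh3a2, which oxidises the aldehyde that the lyase releases, was 1.81-fold higher (the largest edgeR adjusted p of these 4 genes was 1e-08). Sgpp2, the other S1P phosphatase gene, was 2.06-fold higher at 0.824 ± 0.246 CPM under the Cnr2 KO label and 0.385 ± 0.0608 CPM in WT (edgeR adjusted p = 0.0397). That call was lost without Cnr2 KO replicate 2 or 3 or any 1 WT replicate (edgeR adjusted p from 0.0763 to 0.172). Plpp1, a lipid phosphatase of broad specificity, was 4.02-fold lower at 0.883 ± 0.475 CPM under the Cnr2 KO label and 3.49 ± 0.820 CPM in WT (edgeR adjusted p = 2.31e-05). Spns2 and Mfsd2b, transporters that release S1P from cells, were too low to test. Spns2 was at 0.109 ± 0.0978 CPM under the Cnr2 KO label and 0.349 ± 0.161 CPM in WT, and Mfsd2b at 0.344 ± 0.227 CPM under the Cnr2 KO label and 0.117 ± 0.0711 CPM in WT.

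In sphingolipid synthesis, 19 genes were tested, with 10 higher and 5 lower (33.1% and 33.2% over all tested genes). Their median log2 fold change was 0.23. Degs1, which forms ceramide, was 1.73-fold higher, at 324 ± 6.32 CPM under the Cnr2 KO label and 187 ± 2.33 CPM in WT. Ormdl3, a brake on the first step of the pathway, was 1.82-fold lower and the sphingomyelin synthase gene Sgms1 1.46-fold lower (the largest edgeR adjusted p of these 3 genes was 1.05e-08).

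Among 6 tested genes of LPA production and the Enpp family, 2 were higher and 4 were lower (33.1% and 33.2% over all tested genes). Their median log2 fold change was -0.35. Enpp5, a relative of Enpp2, was 5.05-fold higher, at 13.1 ± 1.53 CPM under the Cnr2 KO label and 2.75 ± 0.559 CPM in WT, and Enpp4 was 1.90-fold higher, so these relatives did not follow Enpp2. Liph, a phospholipase that forms LPA, was 2.50-fold lower, at 0.620 ± 0.112 CPM under the Cnr2 KO label and 1.55 ± 0.196 CPM in WT (edgeR adjusted p = 0.00246). Enpp3 had 2 counts in all under the Cnr2 KO label, both in replicate 3, and 138 counts in WT, a 23.2-fold lower ratio with an exact 95% counting interval of 6.31 to 193.6. Its fitted fold was 20.9 with all libraries and 267.5 without Cnr2 KO replicate 3, where no counts remain under that label and a fitted fold is no bound.

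Of 23 tested genes of receptor signalling and desensitisation, 13 were higher and 6 were lower (33.1% and 33.2% over all tested genes). Their median log2 fold change was 0.46. Gnai2, a subunit of the inhibitory G protein through which S1PR1 signals, was 1.61-fold higher, at 853 ± 21.0 CPM under the Cnr2 KO label and 529 ± 38.0 CPM in WT. Gna13, which couples S1PR2 to RhoA, was 1.75-fold lower. Arrb1, a beta-arrestin, was 2.20-fold higher and the GTPase gene Rac2 1.64-fold higher (the largest edgeR adjusted p of these 4 genes was 4.66e-10). Grk2, a kinase that desensitises S1PR1, was at 450 ± 23.4 CPM under the Cnr2 KO label and 542 ± 21.5 CPM in WT (log2 fold change -0.27, edgeR adjusted p = 8.08e-05).

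**Figure D4:**
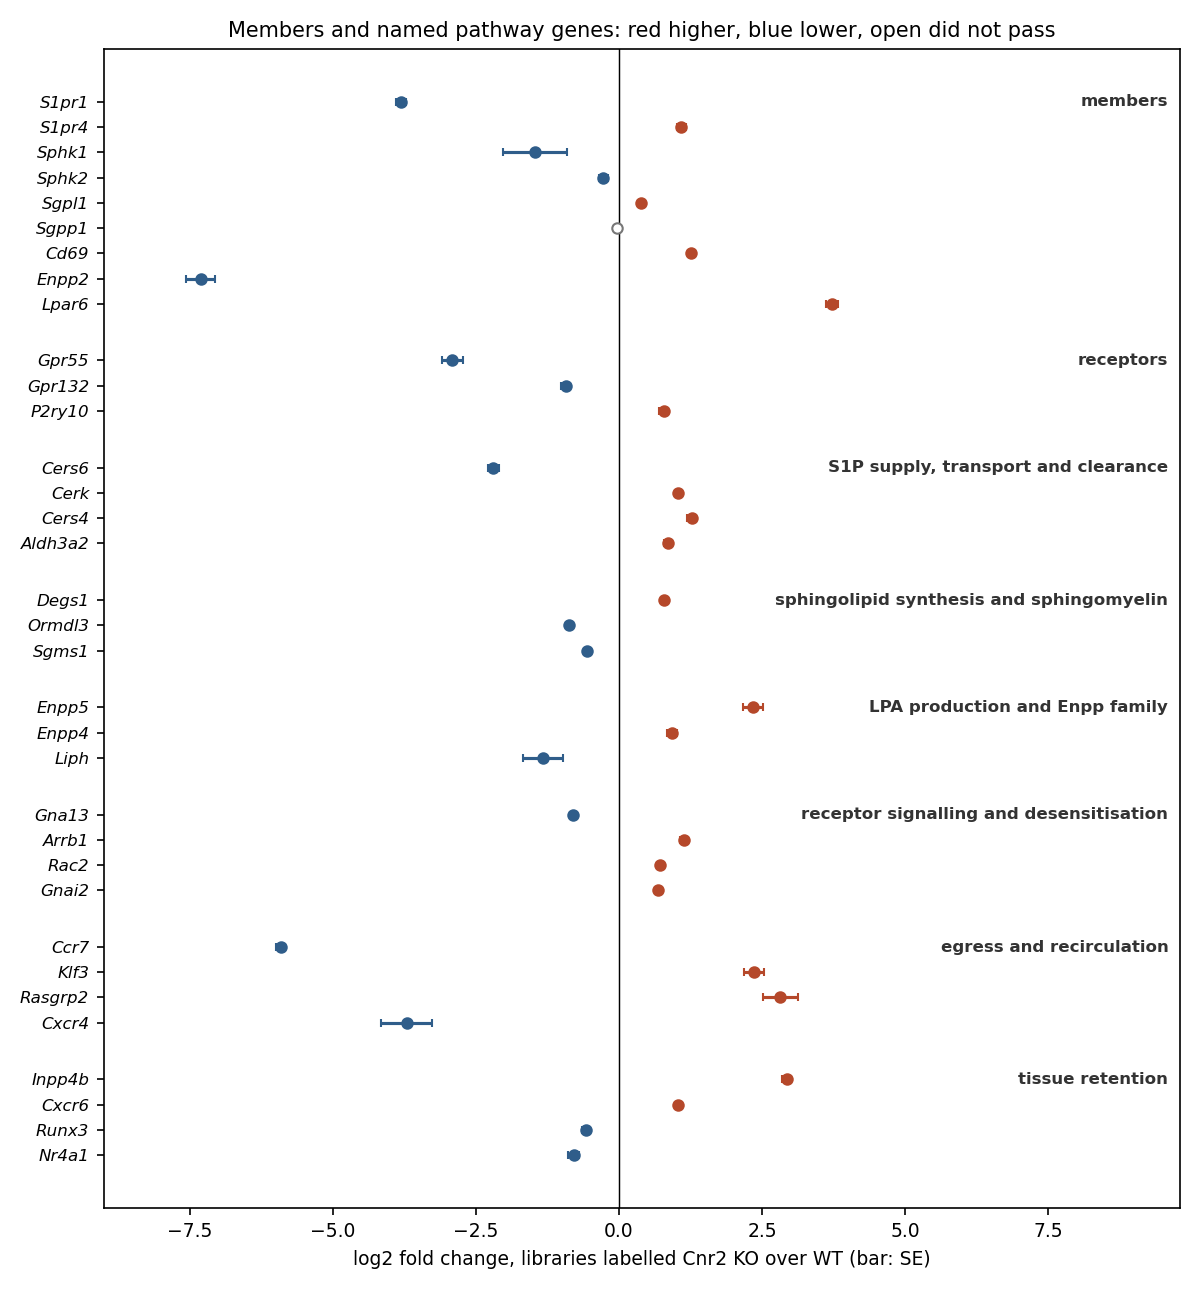
Log2 fold change with its SE, libraries labelled Cnr2 KO over WT (horizontal axis). Shown are the 9 genes and those named for the smallest p in each list. S1pr3 and Enpp3, with 0 and 2 counts under the Cnr2 KO label, are left out. Genes singled out after their values had been seen, such as S1pr2 and Klf2, are not shown. Enpp2 at -7.31 and Ccr7 at -5.91 lie farthest to the left, Lpar6 at 3.72 farthest to the right, and Sgpp1 at -0.03 did not pass.

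Of 9 tested egress and recirculation genes, 4 were higher and 5 were lower (33.1% and 33.2% over all tested genes), with a median log2 fold change of -0.24. Ccr7, which guides cells into lymph vessels, was at 7.73 ± 0.891 CPM under the Cnr2 KO label and 467 ± 18.1 CPM in WT, 60.3-fold lower. Cxcr4, a chemokine receptor gene, was 13.1-fold lower, and 34.2-fold lower without Cnr2 KO replicate 2. Klf3 was 5.13-fold higher and Rasgrp2 7.07-fold higher (the largest edgeR adjusted p of these 4 genes was 7.04e-07). Klf2, a transcription factor known to activate S1pr1 in T cells, was at 4.27 ± 0.633 CPM under the Cnr2 KO label and 2.49 ± 0.317 CPM in WT (log2 fold change 0.80, edgeR adjusted p = 0.00307), opposite in direction to S1pr1. Foxo1, which acts upstream of Klf2 in T cells, was at 36.6 ± 1.61 CPM under the Cnr2 KO label and 46.0 ± 3.27 CPM in WT (log2 fold change -0.33, edgeR adjusted p = 0.00072).

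Of 7 tested retention genes, 2 were higher and 3 were lower, beside the same shares over all genes, with a median log2 fold change of -0.02. Inpp4b was 7.64-fold higher, and Cxcr6, a chemokine receptor gene of resident lymphocytes, 2.04-fold higher. Runx3 was lower by a log2 fold change of -0.58 and Nr4a1, which T cell receptor signals induce, 1.73-fold lower (the largest edgeR adjusted p of these 4 genes was 6.44e-07). The integrin genes Itgae and Itga1, whose products hold resident T cells in epithelium and matrix, were too low to test. Itgae was at 0.533 ± 0.190 CPM under the Cnr2 KO label and 0.399 ± 0.169 CPM in WT.

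S1pr2, Lpar5, Sgpp2, Plpp1, Spns2, Mfsd2b, Grk2, Klf2, Foxo1 and Itgae were singled out after their values had been seen. S1pr3, Plpp1, Enpp3, Liph and Cxcr4, like Enpp2 and Sphk1, passed the filter on low counts through their WT libraries alone, and Sgpp2 and Rasgrp2 through those labelled Cnr2 KO alone. Cxcr4 had 2, 9 and 1 counts under the Cnr2 KO label and 57, 403 and 43 counts in WT. S1pr3, Sgpp2, Plpp1, Gpr55, Cers4, Cers6, Cerk, Sgms1, Gna13, Gnai2, Arrb1, Klf3, Rasgrp2, Foxo1, Inpp4b, Cxcr6 and Runx3 overlap other annotated genes, which makes their counts uncertain.

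**Figure D5:**
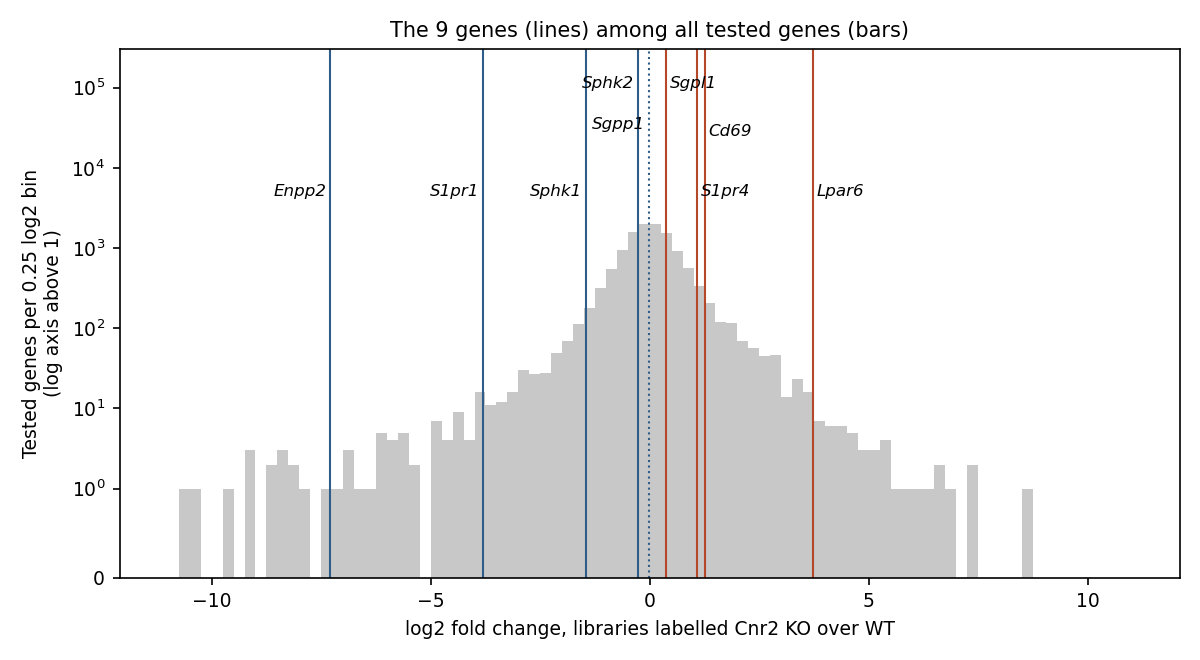
Number of tested genes (vertical axis) by log2 fold change, libraries labelled Cnr2 KO over WT (horizontal axis), with the places of the 9 genes marked. Enpp2 at -7.31, S1pr1 at -3.80 and Lpar6 at 3.72 lie in the tails, and Sgpp1, Sphk2 and Sgpl1 near the centre.

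The genes nearest to S1pr1 in profile, by Euclidean distance of centred log2 CPM over the 6 libraries among 9365 genes, were Lif (distance 0.497), Gbp5 (0.700) and Gprasp2 (0.726). Nearest to Cd69 were Pqlc3 (distance 0.027), Amdhd2 (0.069) and Dtnbp1 (0.083). Nearest to Enpp2, at larger distances, were Mycl (2.14), Cd300a (2.23) and Shisa3 (2.49). These distances describe 6 libraries of 2 groups.

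Some markers of other cells also differed between the groups, where 66.3% of all tested genes were called. Of 4 listed endothelial markers, only Pecam1 had a row. It was at 39.3 to 40.3 CPM in libraries labelled Cnr2 KO and 105.9 to 114.3 CPM in WT. Endothelial cells are rich in S1pr1, leukocytes also express Pecam1, and Cdh5, Kdr and Tek had no row. Of 6 T cell markers, 3 had a row. They summed to 18.2 to 21.4 CPM in libraries labelled Cnr2 KO and 5.87 to 6.26 CPM in WT, mostly from Cd3g. Cd3d was too low to test, and Cd4, Cd8a and Cd8b1 had no row. Of 5 dendritic cell markers, all analysed, the sum was 20.4 to 25.6 CPM under the Cnr2 KO label and 10.9 to 13.5 CPM in WT, mostly from Xcr1. The list was mixed, with 1 gene higher and 1 lower of 2 tested: Batf3 had 0 counts in all libraries labelled Cnr2 KO and 17, 123 and 23 counts in WT, and Zbtb46 was at 0.247 ± 0.118 CPM under the Cnr2 KO label and 0.646 ± 0.206 CPM in WT, too low to test. Of 3 epithelial markers, only Epcam had a row. Its level was 44.5 to 50.01 CPM in libraries labelled Cnr2 KO and 10.5 to 11.4 CPM in WT. The B cell marker analysed, Cd79b of 4 listed, was at 25.1 to 26.3 CPM under the Cnr2 KO label and 16.1 to 17.2 CPM in WT. Basophil and mast cell markers (3 of 4 analysed) summed to 3.70 to 4.33 CPM under the Cnr2 KO label and 1.58 to 3.43 CPM in WT. Cpa3 and Fcer1a were higher, the call of Cpa3 being lost without any 1 of 4 libraries. Mcpt8 was lower, at 0.468 ± 0.205 CPM under the Cnr2 KO label and 1.57 ± 0.212 CPM in WT (edgeR adjusted p = 0.000457). Mcpt8 and Batf3 passed the filter on low counts through their WT libraries alone, and Cpa3 and Fcer1a through those labelled Cnr2 KO alone. The erythroid marker Hba-a1 (1 of 2 listed) was at 4.67 to 5.77 CPM under the Cnr2 KO label and 0.683 to 1.00 CPM in WT. The listed markers of ILC3s, fibroblasts, macrophages and neutrophils that had a row summed to less than 4 CPM in every library. None of the 3 NK cell markers had a row. The ILC3 cytokine genes Il22 and Il17a had 0 counts in all libraries labelled Cnr2 KO, against 21, 214 and 27 counts of Il22 and 17, 121 and 5 counts of Il17a in WT, and the macrophage marker Adgre1 had 3, 19 and 16 counts under the Cnr2 KO label and 0 in all WT libraries. Ribosomal protein genes took 1.49 to 1.73% of counts under the Cnr2 KO label and 2.36 to 2.52% in WT. The part of these differences in the results above was not tested.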

How the data were processed

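RNA was measured by sequencing in 3 libraries labelled Cnr2 KO and 3 WT libraries. The authors deposited expected counts, which are estimated and need not be whole. Partek 10.0, STAR 2.7.8, DESeq2 and mm10 are named, per the submitters' processing notes, with no role or order, and the sources used here do not give the counter or its strand setting. A low-input kit made the cDNA, per the labels' protocols, and 10 pg of RNA is named for every library.

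Values were rounded and tested by quasi-likelihood in edgeR 4.0.16 under R 4.3.3 (TMM scaling, filterByExpr with a minimum count of 10 and minimum total of 15, genotype as the only term), which left out 4438 genes. Adjusted p-values are Benjamini-Hochberg over all 12150 tested genes, and the SE is approximate, the absolute log2 fold change divided by the square root of F. Levels are TMM-scaled CPM, as mean ± SD over 3 libraries, and levels per kb use the union of exons. Ratios use counts plus 0.5. Profiles were compared among tested genes of at least 5 CPM. Positions are from GENCODE M21 (GRCm38), which 16200 symbols matched.

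The 9 genes, the 7 lists around them and the markers were chosen with earlier results of these data known. Named are Cnr2, the 9 genes, up to 4 genes of each list with the smallest p, genes of those lists at 0 counts in a whole group, and the 3 nearest profiles of 3 genes. A gene that the rule names is not reported here. Alternatives were DESeq2 1.42.0 and its size factors, limma-voom (limma 3.58.1), other filters, a replicate block, each library left out, WT replicate 2 thinned, a GC content and length offset, a stricter threshold and another pseudocount. No pair of libraries within a group was alike to within sampling noise (4.15 to 8.07 chi-square per gene). The labels do not say whether replicates were separate animals or cultures, and the p-values speak of the spread among these 6 samples alone, which may be technical. Intervals and floors cover counting error only.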

Additional observations from a re-analysis of the deposited data

How the results depend on the processing

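Of 134 alternative values for the 9 genes, 128 kept their direction and their side of the threshold. For Sphk1 the log2 fold change ranged from -2.27 to -1.12 with 1 library left out, and at an adjusted p threshold of 0.01 its value of -1.47 was no longer called. The stricter filter removed Sphk1 and gave no value for it. For Sgpp1, never called, the range was -0.06 to 0.01, with the sign turned without WT replicate 2 (edgeR adjusted p = 0.884). The cause was not tested. All 432 alternative values of the other 29 named genes kept direction and call. Apart from Cnr2, these genes had the smallest p of their lists, a choice that favours calls that hold. The stricter filter gave no value for Enpp3, Liph and Cxcr4. Genes outside this tally, such as Sgpp2 and Cpa3, lost their call in some fits, as given above. The Sphk1 to Sphk2 log2 ratio difference was -1.39 with 0.5 counts added and -0.63 with 5. The median of all genes stayed between -0.03 and 0.01 over 14 alternative fits. The labels link libraries of the 2 groups by replicate number alone. Deviations of same-numbered libraries correlated at 0.0656, 0.00571 and 0.0429. Cnr2 KO replicates 1 and 3 correlated best with their own number, and Cnr2 KO replicate 2 with WT replicate 1 (0.00638). Whether same-numbered libraries shared a batch was not tested. With replicate number as a block, 4061 genes were higher and 4113 lower, against 4019 and 4034 without it. Few counts limit Sphk1, Enpp2, S1pr3, Enpp3, Cxcr4, Liph and Sgpp2, among others, in the libraries labelled Cnr2 KO, where each had at most 20 counts.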
